A study of Mus musculus with 2 samples.

Results

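Mir101a and Mir101b are the mouse genes of the microRNA (miRNA) miR-101, taken by their GENCODE M21 names from a table of 2202 miRNA genes, of which they are 2. The study sequenced small RNA from heart tissue of male adult B6CASTF1/J mice, the hybrid offspring of the strains C57BL/6J and CAST/EiJ, aged 18 to 20 months. There was 1 group with 2 libraries, labelled biological replicates 2 and 1, with no treatment and no other genotype. Each library has a biosample record of its own, while the donor record is the same, so p-values measure only the spread or counting error of these libraries, which may be technical. Replicate 2 held 5284446 reads in miRNA genes and replicate 1 held 3037063, a depth ratio of 1.74.

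A miRNA is cut from a hairpin, first in the nucleus and then in the cytoplasm, and 1 arm or both arms are loaded into an Argonaute protein. The loaded strand pairs with messenger RNAs mainly through its seed, bases 2 to 8 from the 5′ end, and lowers their translation and stability. The 3p arm of miR-101 is the one usually loaded. It is known as a repressor of Ezh2, a histone methyltransferase, and in rat cardiac fibroblasts of Fos, an AP-1 transcription factor. Raising it in infarcted rat hearts is known to limit scarring. No messenger RNA was measured here.

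The mature sequences are shown first because the genes differ in so few bases that the counting depends on them. They come from RefSeq (GRCm38.p6), in which both genes were matched by symbol, and run 5′ to 3′ with the seed in capitals. The sequences of miR-101c, from a related hairpin, and of miR-144-3p, which shares part of the seed, are given for comparison.
miR-101a-3p: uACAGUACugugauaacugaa
miR-101b-3p: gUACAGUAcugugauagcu
miR-101c: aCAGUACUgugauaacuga
miR-144-3p: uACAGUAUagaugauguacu
miR-101a-5p: uCAGUUAUcacagugcugaugc
miR-101b-5p: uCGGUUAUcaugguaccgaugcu

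Over the 21 bases of miR-101a-3p, the Mir101b hairpin differed at 1 base, A16G, with positions counted from 1 at the 5′ end of miR-101a-3p and the Mir101a base written first. A read of the 3p arm that ends before base 16 therefore matches both genes. The annotated 5′ end of miR-101b-3p lies 1 base earlier, so the annotated seeds are in different registers: ACAGUAC for miR-101a-3p and UACAGUA for miR-101b-3p. Their matching target heptamers are GUACUGU and UACUGUA. Among 1738 mature sequences in the table, each of these seeds was held by 1 only. Bases 2 to 7 of miR-101a-3p were held by 2, and the other was miR-144-3p, a miRNA of red blood cells. Those of miR-101b-3p were likewise held by 2. The 5p arms differed more, at 5 of 22 bases (A3G, C11U, A12G, G15A and U17C, counted from the 5′ end of miR-101a-5p).

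The hairpins are shown with both annotated arms in capitals, to place the shared stretch.
Mir101a hairpin (GRCm38.p6, chr4:101346945-101347027, minus strand): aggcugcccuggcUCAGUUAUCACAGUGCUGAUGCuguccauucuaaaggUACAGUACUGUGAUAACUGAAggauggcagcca
Mir101b hairpin (GRCm38.p6, chr19:29135279-29135375, plus strand): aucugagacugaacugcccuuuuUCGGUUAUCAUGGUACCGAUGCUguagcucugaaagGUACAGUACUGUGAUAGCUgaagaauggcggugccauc
In a global alignment 69 of 99 columns were identical (69.7%). The longest exact stretch in common was 20 bases, ending just before the base that differs, and for each gene this was its longest match among the 2201 other miRNA hairpins. The next longest match of Mir101a was 19 bases with Mir101c, against 14 bases for Mir101b. All 19 bases of the annotated miR-101c lie within the Mir101a hairpin. Reads that aligned to more than 1 place entered no gene's count (6355706 in replicate 2, 32.5% of its reads, and 3857758 in replicate 1, 40.7%). Short 3p reads of either gene can therefore be missing from the counts. How many were lost cannot be read from these tables.

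The genes lie on different chromosomes in neighbourhoods with the same layout. Mir101a (ENSMUSG00000065451.1) lies within an exon of E130102H24Rik, a long noncoding RNA of the same strand (chromosome 4, 101346531 to 101356735). Mir101b (ENSMUSG00000065556.1) lies in an intron of Rcl1, a ribosome assembly gene of the same strand (chromosome 19, 29101375 to 29143929). The nearest protein-coding gene downstream of Mir101a was Jak1, 81.7 kb away, and that downstream of Mir101b outside its host was Jak2, 116 kb away. Both encode Janus kinases of cytokine signalling and share the strand of their hairpin. Upstream, the nearest were Ak4 at 72.2 kb from Mir101a and Ak3 at 87.3 kb from Mir101b, both adenylate kinases of mitochondria and both on the opposite strand. No other miRNA gene was annotated within 10000 bases of either hairpin.

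**Figure D1:**
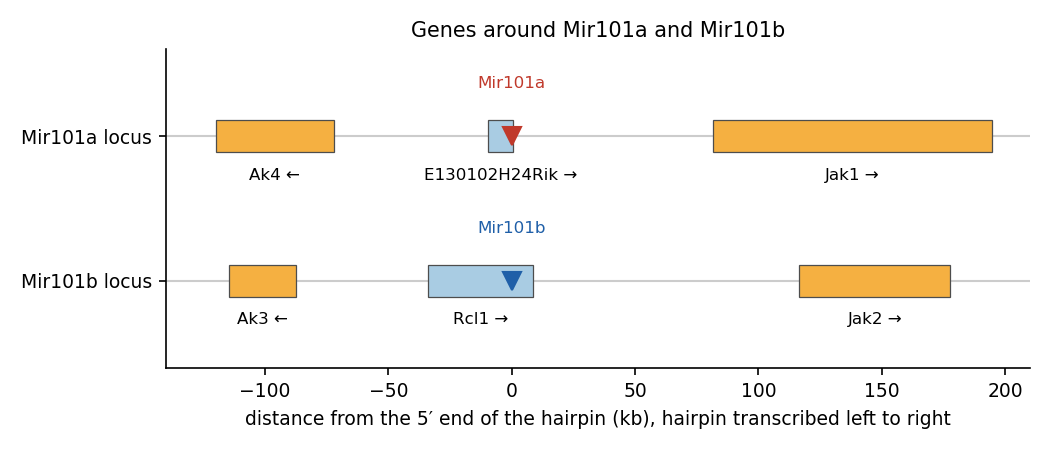
Genes around each hairpin by distance in kb from its 5′ end, with the hairpin (triangle) transcribed left to right; light bars are the genes that hold the hairpin and orange bars the nearest protein-coding genes, with arrows for their strand. Both loci run from an adenylate kinase gene (72.2 and 87.3 kb upstream) to a Janus kinase gene (81.7 and 116 kb downstream).

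Both genes were detected in both libraries, and Mir101b had more reads than Mir101a in each, with a wide gap in replicate 2 and a narrow one in replicate 1. Mir101a had 429 reads in replicate 2 and 728 in replicate 1. Per 1000000 miRNA gene reads of the library (CPM), that is 81.2 CPM in replicate 2 (95% Wilson interval 73.9 to 89.2), against 239.7 CPM in replicate 1 (222.9 to 257.8). Replicate 1 was high and replicate 2 low, with a mean of 160.4 ± 112.1 CPM (SD, n = 2). Mir101b had 1759 reads in replicate 2 and 779 in replicate 1. Its level was 332.9 CPM in replicate 2 (317.7 to 348.8) and 256.5 CPM in replicate 1 (239.1 to 275.2), a mean of 294.7 ± 54.0 CPM (SD, n = 2). Here replicate 2 was the higher, by much less. The intervals cover counting error only, as no molecular identifiers are recorded. The third related gene, Mir101c (ENSMUSG00000106183.1, chromosome 9, 3038669 to 3038743), had 0 reads in both libraries, which allows up to 0.568 CPM in replicate 2 and 0.988 CPM in replicate 1. Mir101c reads that also match Mir101a would have been counted for neither gene.

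**Figure D2:**
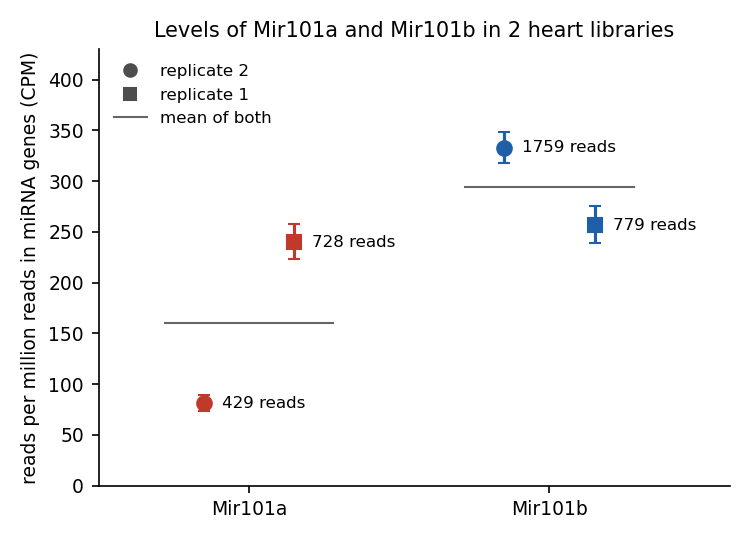
Level of Mir101a and Mir101b in CPM in replicate 2 (circles) and replicate 1 (squares), with 95% Wilson intervals for counting error, the read count beside each point and a line at the mean of both libraries. Mir101a stood at 81.2 CPM in replicate 2 and 239.7 CPM in replicate 1, while Mir101b stood at 332.9 CPM in replicate 2 and 256.5 CPM in replicate 1.

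The counts hold both arms of a hairpin together, so they do not say which arm was sequenced, nor at which base a read began. The strand opposite to each gene had 0 reads in both libraries, and the column for either strand gave the same counts as the sense column for both genes.

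By mean level Mir101b ranked 103 and Mir101a 122 among the 2202 genes. Mir101b held nearly the same rank in each library, 101 in replicate 2 and 100 in replicate 1. Mir101a ranked 157 in replicate 2 and 106 in replicate 1. The genes next above Mir101b were Mir222, Mir700 and Mirlet7a-2, and those next below were Mir210, a miRNA induced by low oxygen, Mir411 and Mir92-2. Around Mir101a they were Mir330, Mir203 and Mir3102 above and Mir148a, Mir193b and Mir1843a below. Each of these 12 genes had a range over the libraries that overlapped the range of the gene beside it, so their order could not be told from their spread.

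Both genes differed between the libraries by more than counting error, in opposite directions. The log2 ratio of replicate 2 over replicate 1 was -1.56 for Mir101a (95% exact interval -1.74 to -1.39), a level 0.339 times as high in replicate 2. For Mir101b it was 0.38 (0.25 to 0.50), or 1.30 times as high. In an exact two-sided binomial test with Benjamini-Hochberg adjustment over all 424 tested genes, the adjusted p was 6.13e-73 for Mir101a and 3.54e-09 for Mir101b. This test compares 2 libraries of 1 group, not conditions, and it called 52.8% of the tested genes, 30.9% higher in replicate 2 and 21.9% lower, so a call as such sets neither gene apart. With the common dispersion of this pair of libraries in the exact test of edgeR, which called 2.83% of the genes, neither was called (adjusted p = 0.776 for Mir101a and 1 for Mir101b). That dispersion comes from the same difference of 1 library against 1, so the outcome says little about either gene. Scaled to all reads of each library, Mir101b kept a log2 ratio of 0.13 and was no longer called by the binomial test (adjusted p = 0.0707).

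Mir101a stood near the low end of the distribution of log2 ratios, while the absolute shift of Mir101b was of middling size. Among 321 genes with at least 10 reads in each library, 11 had a log2 ratio as low as that of Mir101a, itself included, and 23 were as far from 0 in either direction. For Mir101b 84 had a log2 ratio as high, itself included, and 163 were as far from 0 in either direction. Of the 46 other genes with a mean level within 2-fold of Mir101a, none had a log2 ratio as low. Their lowest was Mir148a at -1.34, their highest Mir222 at 2.64 and their median -0.03. The median over all tested genes was 0.07.

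**Figure D3:**
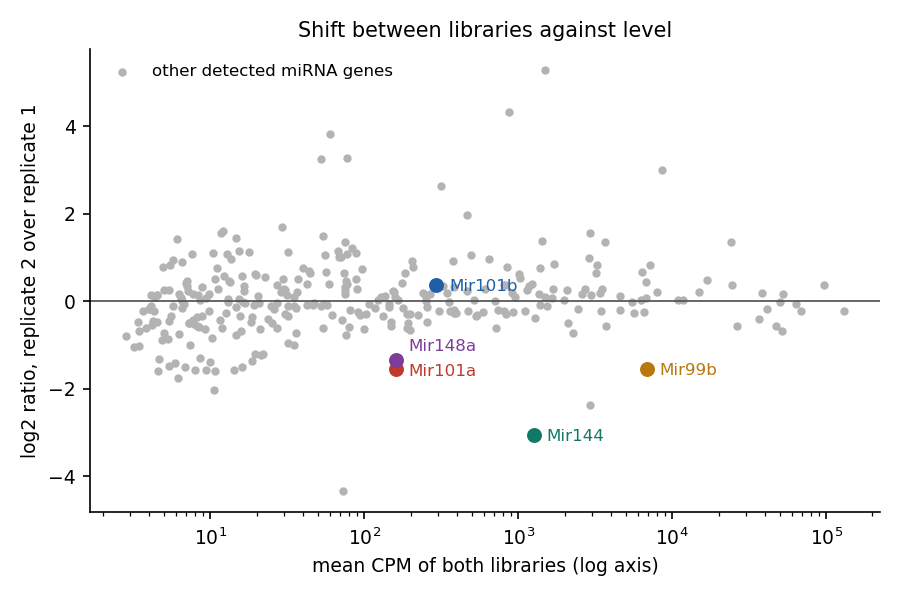
Log2 ratio of replicate 2 over replicate 1 against mean CPM (log axis) for the 321 genes with at least 10 reads in each library, with Mir101a, Mir101b and 3 further genes named in the text in colour. Mir101a lies at -1.56, below all other genes with a mean level within 2-fold of its own, and Mir101b lies at 0.38 within the main cloud.

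Of 133 other genes whose reads over both libraries came to 1000 or more, the closest to Mir101a in log2 ratio were Mir99b (-1.55), Mir148a (-1.34) and Mir451a (-2.37). Mir148a matched it in level too, at 90.6 CPM in replicate 2 against 229.5 CPM in replicate 1. Mir99b was far more abundant, at 3474 CPM in replicate 2 against 10166 CPM in replicate 1. The genes closest to Mir101b were Mirlet7a-1 (0.38), Mir425 (0.37) and Mir126a (0.37), the abundant miRNA of blood vessel endothelium. Likeness here is the difference of 1 log2 ratio over 2 libraries, a description.

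Mir144, whose 3p product shares bases 2 to 7 with miR-101a-3p, was lower in replicate 2 as well. Its counts were 1432 in replicate 2 against 6879 in replicate 1, and its log2 ratio was -3.06. Mir144 belongs to the erythroid markers with Mir451a and Mir486, whose summed level was 2542 CPM in replicate 2 and 8201 CPM in replicate 1. Of these 3 genes, Mir144 and Mir451a were lower in replicate 2 and Mir486 was higher. Other summed levels were higher in replicate 2: the 7 epithelial markers (4 higher, 2 lower and 1 not called) summed to 3874 CPM in replicate 2 and 298.3 CPM in replicate 1, with Mir205 and Mir200c making up most of the sum in replicate 2 (1963 and 1652 CPM, against 2.30 and 82.6 CPM in replicate 1). The median log2 ratio of these 7 was 0.43. The 5 fibroblast markers (2 higher, 1 lower, 1 not called and 1 with too few reads) summed to 19013 CPM in replicate 2 and 3851 CPM in replicate 1, of which Mir21a held 15190 and 1899 CPM. These calls stand beside 30.9% of all tested genes called higher in replicate 2 and 21.9% called lower. Leukocyte markers summed to 7238 CPM in replicate 2 and 6557 CPM in replicate 1, with Mir142b at 0 in both. The part of these cell types in the shift of Mir101a was not tested. In tissue libraries, fewer cells of a type and less of a miRNA per cell cannot be told apart.

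The tissue label was checked against heart muscle markers, which summed to 14812 CPM in replicate 2 and 10844 CPM in replicate 1. Nearly all of it came from Mir208a (mean 7169 CPM), of the alpha myosin heavy chain gene, and Mir499 (5523 CPM), of Myh7b. The other 6 had mean levels from 4.25 CPM (Mir133a-1) to 82.9 CPM (Mir208b). Mir208a and Mir208b were higher in replicate 2 by the binomial test and 6 markers were not called. Over all tested genes 30.9% were called higher in replicate 2 and 21.9% lower. The 9 brain markers summed to 235.4 CPM in replicate 2 and 292.7 CPM in replicate 1, led by Mir128-1. Among them the 3 copies of Mir124a and Mir9-2 were at 0, but 8 of the 9 brain markers share a 22-base stretch with another hairpin, as do 4 of the 8 heart muscle markers. Reads of the markers that share a stretch can be lost to several places, so their low counts do not bear on the tissue label. This limit does not cover the heart muscle markers Mir208b (mean 82.9 CPM) and Mir133b (9.44 CPM). Nor does it cover the brain marker Mir137 (55.4 CPM), as these share no such stretch. The liver markers Mir122 and Mir192 summed to 46.7 CPM in replicate 2 and 67.8 CPM in replicate 1.

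Within a library, Mir101a was the smaller of the 2 in replicate 2 and close to equal in replicate 1. In replicate 2 it had 0.244 reads per read of Mir101b (95% exact interval 0.219 to 0.271), so that Mir101b was 4.10 times as abundant. In replicate 1 it had 0.935 reads per read of Mir101b (0.844 to 1.04), an interval that includes equality. Mir101a thus made up 19.6% of the reads of both genes in replicate 2 (95% Wilson interval 18.0 to 21.3), against 48.3% in replicate 1 (45.8 to 50.8). These ratios do not depend on how the libraries are scaled. They are ratios of counted reads, and any difference between the sequences in ligation or in reads lost to several places would enter them, which was not measured.

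The mean log2 ratio of Mir101a over Mir101b was -1.07 ± 1.37 (SD, n = 2), an SD larger than the size of the mean. It was -2.04 in replicate 2 alone and -0.10 in replicate 1 alone, so the size of the gap rests on replicate 2. No test over libraries was made, since a sign-flip test of 2 libraries cannot reach the threshold. The shift of the log2 ratio, replicate 2 minus replicate 1, was -1.94 (95% interval for counting error -2.15 to -1.73), a 3.83-fold difference of ratios. It exceeded counting error (two-sided Fisher's exact test, p = 9.57e-76), which again compares 2 libraries only. Reads aligned to several places were 32.5% of replicate 2 and 40.7% of replicate 1. Their part in this shift was not tested.

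Added together, the genes differed less between the libraries than Mir101a alone. They had 2188 reads in replicate 2 and 1507 in replicate 1, which is 414.0 CPM for replicate 2 and 496.2 CPM for replicate 1, a mean of 455.1 ± 58.1 CPM (SD, n = 2). The log2 ratio of the sum was -0.26 (95% exact interval -0.36 to -0.17).

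To show how far such ratios move between these libraries, 14 other pairs of related hairpins at different loci were measured in the same way. They were chosen with earlier results of these data known and do not hold every pairing within a family. Their absolute shift ran from 0.00446 (Mir15a over Mir15b) to 3.84 (Mir26b over Mir26a-1), with a median of 0.63, and 10 of the 14 were under 1. The shift of Mir101a over Mir101b was the second in size of the 15. Mir26b over Mir26a-1 was the one above it and rests on 44 reads of Mir26a-1 in replicate 1, whose hairpin shares 22 bases with Mir26a-2. Mir34a over Mir34c followed at -1.90, on 30 reads of Mir34c in replicate 1. Of the 11 other listed pairs with at least 100 reads in all 4 counts, none moved as far. The closest were Mir99a over Mir99b at 1.14 and Mir10a over Mir10b at -1.04. Some pairings left off the list, with at least 100 reads in all 4 counts, lay further apart than Mir101a and Mir101b. Such were Mir200c (log2 ratio of replicate 2 over replicate 1, 4.32) with Mir200b (-0.61), and Mir100 (0.44) with Mir99b (-1.55). The place of Mir101a over Mir101b therefore holds for the listed pairs only. No test was made across pairs.

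**Figure D4:**
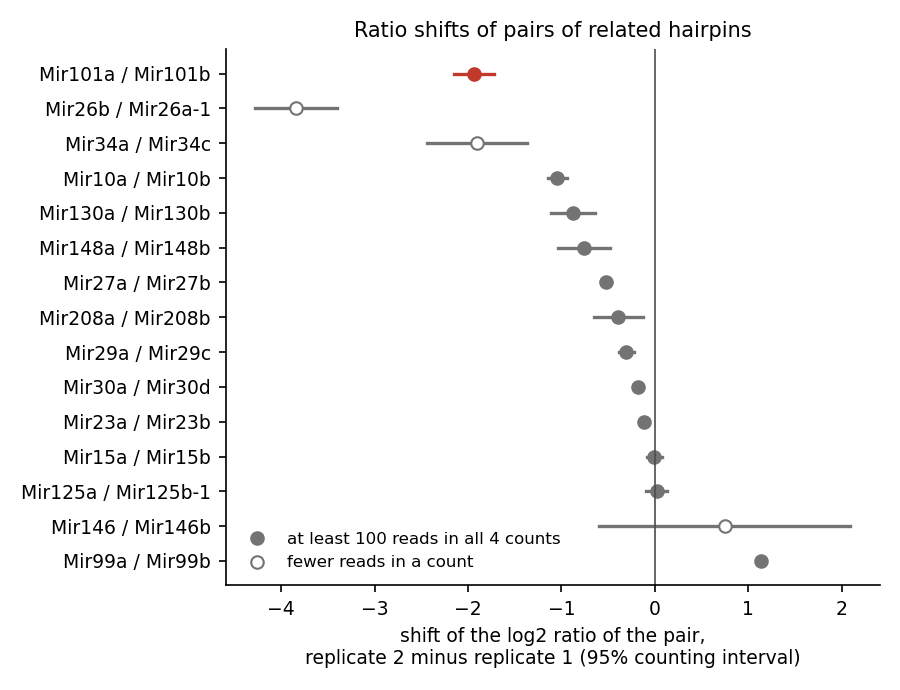
Shift of the log2 ratio of each of the 15 pairs of related hairpins, replicate 2 minus replicate 1, with 95% intervals for counting error; open circles mark pairs with a count under 100 reads. Mir101a over Mir101b lies at -1.94, beyond the other pairs drawn as filled circles.

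Mir101a and Mir101b were set beside other miRNAs reported to act on fibrosis of the heart. Of 16 hairpins reported to limit it, 6 had a higher mean level than Mir101a and 5 a higher one than Mir101b. Those 5 were Mir29a and Mir29c, repressors of collagen messages, and Mir30a, Mir30c-1 and Mir30c-2, of a family known in rat heart to repress connective tissue growth factor. Mir29a stood at 19670 CPM in replicate 2 against 14155 CPM in replicate 1, and Mir30a at 11912 CPM in replicate 2 against 11603 CPM in replicate 1. Above Mir101a alone was Mir24-2, at 200.2 CPM in replicate 2 against 248.6 CPM in replicate 1. Of the 16 hairpins, 13 hold an exact stretch of 22 bases that another hairpin holds too, all except Mir29a, Mir30a and Mir133b, so their counts can be too low. Mir101a and Mir101b hold no such stretch. They share a shorter one of 20 bases with each other, and Mir101a shares 19 bases with Mir101c. Short reads of either gene can therefore be missing too, so their places against the 16 hairpins carry a similar limit.

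By the binomial test 8 of the 16 were higher in replicate 2, 1 was lower (Mir24-2, log2 ratio -0.31) and 7 were not called, with a median log2 ratio of 0.29. Mir26a-1 had the highest of these log2 ratios at 3.27, and Mir30a, at 0.04, was called on its depth. None of the 16 had a log2 ratio as low as that of Mir101a; the lowest was that of Mir1a-1, -0.87, which was not called. Of 6 reported to promote fibrosis, 5 were higher in replicate 2 and 1, Mir199b (log2 ratio -0.84), was lower, with a median of 0.52. Mir21a, a miRNA of activated fibroblasts, was among the 5. The log2 ratio was 1.36 for Mir34a and 0.20 for Mir155, a miRNA of immune cells. These counts stand beside 30.9% of all tested genes called higher and 21.9% called lower. With the common dispersion in edgeR's exact test, 1 of the 16 (Mir26a-1, adjusted p = 0.0252) and 1 of the 6 (Mir21a, adjusted p = 0.0352) were called. That test called 2.83% of all tested genes.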

How the data were processed

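MicroRNA-seq libraries of heart tissue were made from total RNA with a size range under 30, per the labels. The authors deposited raw read counts per miRNA gene, aligned to mm10 and annotated with GENCODE M21 per the labels and the deposited text; names of the aligner and counter were not given in the sources used here. All 2202 IDs matched GENCODE M21. Of the columns for single strands, the first was taken as sense by its position. It held more reads than the other in both libraries. Summary lines (unmapped 34.3% and 19.4% of reads in replicates 2 and 1, several places 32.5% and 40.7%, outside miRNA genes 6.27% and 7.79%) stayed out of totals.

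Genes whose reads over both libraries came to 10 or more were tested (exact binomial, threshold 0.05). A count of 0 was set to 0.5 in log2 ratios and taken to allow 3 reads. With 1 group, no model of group means was possible. Intervals of ratio shifts use the normal approximation of log odds. Tools were Python 3.11.15, scipy 1.17.1, Biopython 1.88, R 4.3.3, edgeR 4.0.16 and DESeq2 1.42.0 (size factors only). Of the tests, only the binomial test and edgeR's exact test were tried on simulated counts. Those counts were set with less spread between libraries than was estimated here. Members, lists, pairs and named genes (rule: 3 neighbours by level on each side, and the 3 closest in log2 ratio) were chosen with earlier results of these data known. Mir146a of the pair list is named Mir146 in GENCODE.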

Additional observations from a re-analysis of the deposited data

How the results depend on the processing

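The opposite shifts of Mir101a and Mir101b kept their signs under all 7 alternatives for each gene. Mir101a ranged from -1.81 to -1.56 and was called in 6 of them. edgeR's exact test with a common dispersion gave -1.57 (adjusted p = 0.776) for Mir101a and 0.36 (adjusted p = 1) for Mir101b, both no longer called, because it adds the spread between these libraries, estimated from the same pair, to counting error; over all genes it called 12 in place of 224. Scaled to all reads, which moved the median gene by -0.25, Mir101b fell below the threshold at 0.13 (adjusted p = 0.0707). Without the 10 most abundant genes in the total, which moved it by -0.19, Mir101b was at 0.19 (adjusted p = 0.00567). The level of Mir101b became 86.1 per 1000000 of all reads and 397.3 CPM of the column for either strand, and that of Mir101a 49.4 and 216.3, as the totals differ. The other counts of called genes were 221 to 226.

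Leaving out each library gave 81.2 to 239.7 CPM for Mir101a, 256.5 to 332.9 CPM for Mir101b and -2.04 to -0.10 for their log2 ratio. The column for either strand holds the same counts for both genes, so its ratio shift of -1.94 is no separate check. No paired analysis was possible because there is 1 group. With 429 to 1759 reads per gene and library, counting error is given by the intervals; reads lost to several places are not in them. Loss of CAST/EiJ reads that differ from the reference was not tested.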
